A study of Mus musculus with 16 samples.

Results

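The mRNA levels of 10 Wnt ligand genes were read in the prefrontal cortex (PFC) of 4 mouse genotypes. The members, Wnt1, Wnt2, Wnt3, Wnt4, Wnt5a, Wnt7a, Wnt7b, Wnt9a, Wnt10a and Wnt10b, were taken by symbol from a table of 23284 genes, which lists 19 Wnt ligands in all. A single library was sequenced from each of 16 mice, 4 per genotype, by paired-end sequencing of polyadenylated RNA. The 3 mutant lines carried the CamKIIα-Cre driver, which is active mainly in excitatory neurons of the forebrain. In APC cKOs, Cre deletes exons 11 and 12 of both alleles of Apc, a part of the complex that destroys β-catenin (β-cat), so that β-cat is elevated. In Bcat cOEs, Apc is intact and Cre deletes exon 3 of 1 allele of Ctnnb1, the β-cat gene, which leaves a β-cat that resists degradation. In APC/Bcat cKOs, both alleles of Apc and exons 2 to 6 of both alleles of Ctnnb1 are deleted, so that β-cat is reduced. Controls carried no Cre and were littermates from all lines. The study used mice aged 2 to 3 months and of both sexes. Sequenced tissue also holds cells that do not express Cre, and in bulk tissue fewer cells of a type and less RNA per cell cannot be told apart.

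Wnt ligands are secreted, lipid-modified glycoproteins that bind Frizzled receptors together with coreceptors on nearby cells. In the canonical branch, ligand binding stops the APC-containing complex from destroying β-cat, which then enters the nucleus and acts with TCF/LEF factors. Other branches act through Ror and Ryk receptors without β-cat. In cortex, Wnt signals shape dendrites, synapses and blood vessels. All 3 Cre lines alter the pathway below the ligand, inside the receiving excitatory neuron, so the comparisons ask whether the mRNA of the ligands themselves differed where β-cat was raised or lowered.

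Every Wnt needs a lipid on a conserved serine to leave the cell and to bind Frizzled. The coding bases around that serine are shown because they mark what the 10 genes share, and because their differences bear on how separately the genes can be counted. They were taken from the principal GENCODE M21 transcript of each gene (mm10), read 5′ to 3′ on the coding strand, with the serine codon in capitals.
Wnt1: tgccacgggatgTCCggctcctgc
Wnt2: tgtcatggtgtgAGTggctcctgt
Wnt3: tgccacgggttgTCCggcagctgc
Wnt4: tgtcacggggtgTCGggctcctgc
Wnt5a: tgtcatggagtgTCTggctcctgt
Wnt7a: tgccatggtgtgTCAggctcctgt
Wnt7b: tgtcacggtgtgTCAggctcctgt
Wnt9a: tgccatggtgtgTCTggctcctgc
Wnt10a: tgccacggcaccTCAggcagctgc
Wnt10b: tgccatggaacgTCAggcagctgc

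The 24-base site was found once in each of the 10 genes. It lies at chr15:85537812-85537835 in exon 4 of Wnt7b, at chr11:59330926-59330949 in exon 4 of Wnt9a and at chr4:137296345-137296368 in exon 5 of Wnt4. In Wnt5a it lies at chr14:28522515-28522538 in exon 5. Of its 24 positions, 12 held the same base in all members, and pairs of members differed at 2 to 12 positions. The serine codon was TCA in 4 genes, TCC in 2, TCT in 2, TCG in 1 and AGT in 1. Over the whole translated coding sequence, the 45 pairs of members shared 35.1% to 78.5% of aligned residues (median 44.6%). The closest pairs were Wnt7a with Wnt7b at 78.5% and Wnt10a with Wnt10b at 63.7%. The longest run of identical bases between transcripts of any 2 members was 23 bases, shorter than a 100-base read.

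In 4 places, pairs of Wnt genes are neighbours on the chromosome with no other coding gene between them. On chromosome 15, Wnt10b and Wnt1 point away from each other across 11706 bases. On chromosome 11, Wnt3 and Wnt9b lie 24328 bases apart and Wnt9a and Wnt3a 16175 bases apart, again in opposite directions. On chromosome 1, Wnt6 and Wnt10a lie on the same strand, 6193 bases apart. Neighbours did not always share a level. Wnt9a averaged 9.22 FPKM (fragments per kilobase of transcript, scaled to the mapped fragments of the library). Its neighbour Wnt3a was listed at 0 in 14 of 16 libraries. Wnt10b and Wnt1, by contrast, were both low, at 0.588 and 0.242 FPKM. Antisense genes overlap Wnt5a (Gm2670) and Wnt7b (AU022754). The library kit keeps the strand, but whether the counting used it is not given in the sources used here, so reads of these antisense genes may be included.

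All 10 members had values above 0 in all 16 libraries, and their mean levels covered a wide range. FPKM divides by transcript length, so levels of different genes can be set side by side. Wnt7b, a ligand of brain endothelial cells and of growing dendrites, was the highest at 16.3 ± 1.77 FPKM (SD, n = 16). Wnt9a, known for its part in joint formation, followed at 9.22 ± 1.36 FPKM, and Wnt4, known for its part in kidney and ovary development, at 6.08 ± 1.12 FPKM. Wnt7a, which promotes synapse formation, was at 4.66 ± 1.19 FPKM, and Wnt10a, known from tooth and skin development, was at 4.63 ± 0.789 FPKM. Wnt5a, the main ligand of the Ror receptors, was at 2.47 ± 0.802 FPKM. Wnt2, a ligand with a part in lung development and dendrite growth, was at 1.82 ± 0.553 FPKM.

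The last 3 members lay near or below the limit of 0.5 FPKM set for testing. Wnt10b, known from fat and bone, averaged 0.588 ± 0.269 FPKM and passed. Wnt3, at 0.495 ± 0.14 FPKM, fell just short, and Wnt1, the midbrain organizer ligand, was at 0.242 ± 0.0894 FPKM (SD, n = 16 each). Among all 23284 genes, the members ranked from 5124 for Wnt7b to 14956 for Wnt1. The 10 members held 94.0% of the summed FPKM of the 19 Wnt ligands on average, between 91.8% and 95.7% per library. Wnt7b, Wnt9a and Wnt4 together made up 67.9% of the members' sum, with Wnt7b alone at 35.0%.

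**Figure D1:**
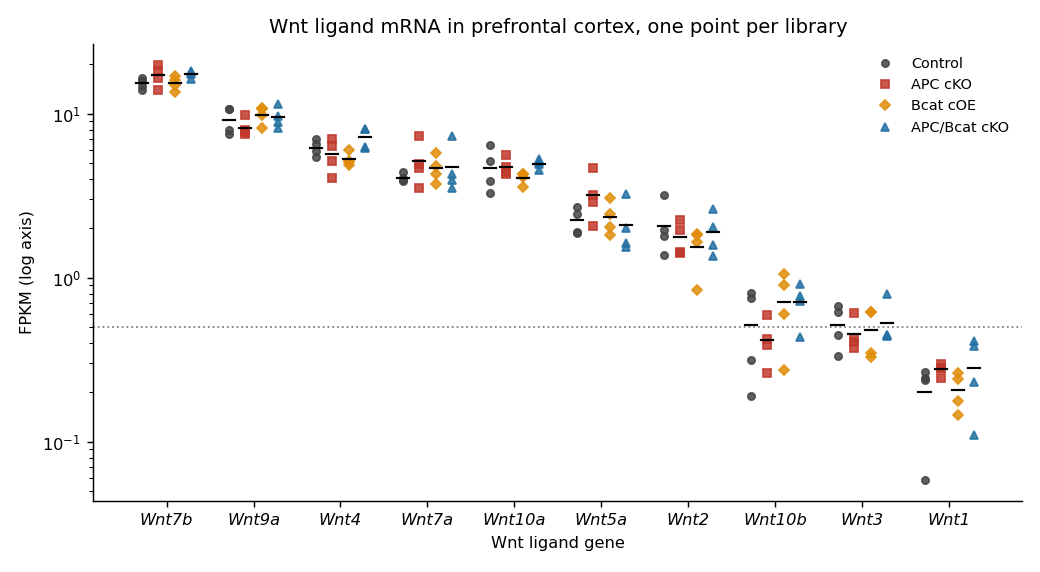
FPKM of the 10 Wnt ligand genes (log axis), with each point 1 library, colour and shape giving the genotype and black bars the mean of 4 libraries. The dotted line marks the limit of 0.5 FPKM on the mean over all libraries. Levels run from 16.3 FPKM for Wnt7b to 0.242 FPKM for Wnt1, and the genotypes overlap for most genes.

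Neighbours in this order were compared within libraries by an exact two-sided sign-flip permutation test, adjusted over 9 pairs. Wnt7b exceeded Wnt9a, and Wnt9a exceeded Wnt4, in 16 of 16 libraries (adjusted exact p = 6.87e-05 each). Wnt4 exceeded Wnt7a in 13 of 16 (adjusted exact p = 0.0065). Wnt7a and Wnt10a were not told apart, each being the higher in 8 libraries (adjusted exact p = 0.947). Nor were Wnt10b and Wnt3 (adjusted exact p = 0.433) or Wnt5a and Wnt2 (adjusted exact p = 0.0523, with Wnt5a higher in 13 of 16). Every other neighbouring pair had an adjusted exact p of 0.00011 or less.

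Of the 9 other Wnt ligands in the table, 4 passed the limit, each below 1 FPKM. Wnt6 averaged 0.897 FPKM, Wnt5b 0.691, Wnt2b 0.632 and Wnt16 0.537. Wnt11 was at 0.124 FPKM and Wnt9b at 0.0894 FPKM. Wnt3a, Wnt8a and Wnt8b were listed at 0 in 14, 13 and 11 of 16 libraries. Fragment counts are not part of the table, and the depth behind these low values is unknown.

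The targeted gene and the tissue were checked first. Apc was at 40.8 to 50.1 FPKM in control and 38.8 to 49.5 FPKM in Bcat cOE libraries, at 7.85 to 17.1 FPKM in the APC cKO and 6.8 to 12.2 FPKM in the APC/Bcat cKO libraries (4 per genotype). Ctnnb1 stood at 155 to 170 FPKM in every genotype mean, so its deletions, which remove part of the transcript, were not visible at the level of the gene. All 6 excitatory neuron markers were present, and their summed level was 1080 to 1390 FPKM per library. Genes listed at 0 numbered 5726 to 6649 per library, and 2 libraries, control replicate 1 and APC cKO replicate 1, were female by Xist and Y-linked genes.

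None of the 8 members tested passed the test against controls in any of the 3 lines. The test was limma, a linear model fitted to log2(FPKM + 0.1) of the 13978 genes that averaged 0.5 FPKM or more, with p-values adjusted over all of them by Benjamini-Hochberg. Changes are differences of group means on that log2 scale, which understates the change of low genes. In APC cKOs 0 of 8 members passed at an adjusted p under 0.05 (0.0429% of all genes tested did) and 0 of 8 at an unadjusted p under 0.05 (10% of all genes). In Bcat cOEs the counts were again 0 of 8 and 0 of 8, against 0.0143% and 5.07% of all genes. In APC/Bcat cKOs they were 0 of 8 and 0 of 8, against 0.207% and 14.2% of all genes. The 3 comparisons share the 4 control libraries. The 95% intervals given for each gene show the sizes of change that the data allow.

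**Figure D2:**
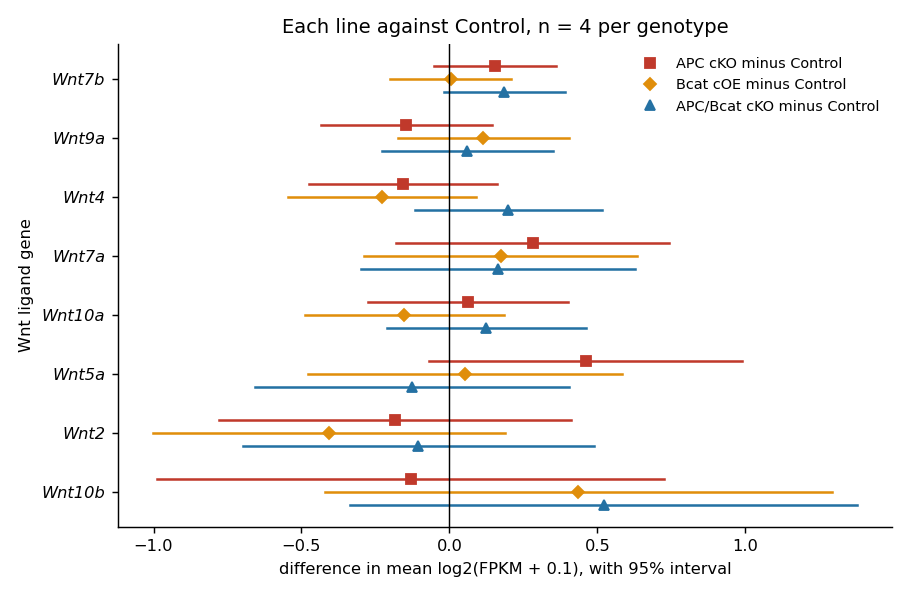
Difference in mean log2(FPKM + 0.1) between each line and controls (horizontal axis) for the 8 Wnt ligand genes tested, with the limma estimate as a symbol and its 95% interval as a line, 4 libraries per genotype. All 24 intervals include 0. They are narrowest for Wnt7b, with a standard error of 0.097, and widest for Wnt10b, with 0.403.

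Wnt7b was the most precisely measured ligand. Controls had 14.7, 15.9, 16.6 and 14.0 FPKM, and APC/Bcat cKOs had 17.9, 18.1, 16.3 and 17.4 FPKM. The groups overlapped through a single control library. APC/Bcat cKOs were 1.14 times controls (95% interval 0.987 to 1.31, limma unadjusted p = 0.0726, adjusted p = 0.393). APC cKOs had 16.6, 18.2, 14.0 and 19.9 FPKM, 1.11 times controls (0.965 to 1.28, limma adjusted p = 0.614). In Bcat cOEs, with 16.1, 14.9, 17.0 and 13.5 FPKM, the ratio was 1.0 (0.869 to 1.16, limma adjusted p = 0.999). The 95% intervals of Wnt7b in the 3 lines together ran from 0.869 to 1.31 times controls.

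Its close relative Wnt7a shares with it the coreceptor partners Reck and Gpr124 on brain endothelium. The 4 control values of Wnt7a lay close together, at 4.39, 3.95, 4.05 and 3.91 FPKM. APC cKOs spread from 3.54 to 7.34 FPKM, with 4.96 and 4.7 between. APC/Bcat cKOs had 3.53, 7.31, 3.95 and 4.27 FPKM, and Bcat cOEs 5.79, 4.31, 3.73 and 4.81 FPKM. Single libraries stood high in each Cre line, and the groups overlapped. The log2 change was 0.281 in APC cKOs (SE 0.218, limma adjusted p = 0.689), 0.173 in Bcat cOEs (SE 0.218, adjusted p = 0.963) and 0.164 in APC/Bcat cKOs (SE 0.218, adjusted p = 0.756). Each value rested largely on 1 library. It was 0.096 without replicate 1 of the APC cKOs, 0.064 without replicate 1 of the Bcat cOEs and -0.058 without replicate 2 of the APC/Bcat cKOs.

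Wnt5a, which signals mainly without β-cat, had the largest difference from controls among the 8 members in APC cKOs. APC cKOs had 4.65, 2.08, 2.89 and 3.18 FPKM, against 1.87, 1.91, 2.7 and 2.46 FPKM in controls. The groups overlapped, with 3 APC cKO libraries above every control. The ratio was 1.38 (95% interval 0.953 to 1.99, limma unadjusted p = 0.084, adjusted p = 0.553). The log2 difference of 0.46 became 0.266 without APC cKO replicate 1 and 0.19 in males only. In Bcat cOEs, with 3.06, 2.04, 1.81 and 2.45 FPKM, it was 1.04 (0.718 to 1.5, limma adjusted p = 0.985). In APC/Bcat cKOs, with 1.64, 3.23, 2.02 and 1.53 FPKM, it was 0.916 (0.635 to 1.32, limma adjusted p = 0.85).

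Wnt4 was lower than controls in both lines with elevated β-cat and higher in the line with reduced β-cat. In each case the 95% interval included no change. Controls had 6.51, 5.43, 7.01 and 5.89 FPKM. APC cKOs had 5.17, 6.32, 4.06 and 7.06 FPKM, Bcat cOEs 5.06, 4.89, 6.01 and 5.16 FPKM, and APC/Bcat cKOs 6.28, 8.1, 6.21 and 8.08 FPKM. Each line overlapped controls. The ratio to controls was 0.897 in APC cKOs (95% interval 0.72 to 1.12, limma adjusted p = 0.746), 0.854 in Bcat cOEs (0.686 to 1.06, adjusted p = 0.95) and 1.15 in APC/Bcat cKOs (0.921 to 1.43, adjusted p = 0.552). The APC cKO value rested on 1 library, since without replicate 3 the log2 difference of -0.157 became -0.011.

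For the 4 other members tested, adjusted p against controls lay between 0.565 and 0.963 in all 3 lines. Wnt9a had ratios to controls of 0.904, 1.08 and 1.04 in APC cKOs, Bcat cOEs and APC/Bcat cKOs. The corresponding ratios of Wnt10a were 1.04, 0.9 and 1.09, and its controls alone ran from 3.28 to 6.43 FPKM. Wnt2 had ratios of 0.881, 0.755 and 0.93, with 95% intervals as wide as 0.5 to 1.14 in Bcat cOEs. For Wnt10b, between 0.191 and 1.06 FPKM over the 16 libraries, the ratios were 0.913, 1.35 and 1.44, and the last had an interval of 0.793 to 2.6. The interval of Wnt10b thus includes differences of more than 2-fold. Leaving out 1 library at a time gave log2 differences of -0.572 to -0.157 for Wnt2 in Bcat cOEs and 0.214 to 0.758 for Wnt10b in APC/Bcat cKOs.

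The 2 members below the limit were fitted without it. Wnt1 stood at 0.202 ± 0.0966 FPKM in controls, 0.277 ± 0.0216 in APC cKOs, 0.207 ± 0.0549 in Bcat cOEs and 0.283 ± 0.139 in APC/Bcat cKOs (SD, n = 4 each). Wnt3 stood at 0.515 ± 0.156, 0.454 ± 0.108, 0.48 ± 0.163 and 0.532 ± 0.175 FPKM in the same order. The smallest unadjusted limma p of these genes against controls was 0.199, for Wnt1 in APC cKOs. The summed level of the 10 members was 45.0 ± 3.35 FPKM in controls, 47.1 ± 4.34 in APC cKOs, 44.6 ± 2.73 in Bcat cOEs and 49.4 ± 2.9 in APC/Bcat cKOs (SD, n = 4 each).

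The lines were also compared with one another, and no member passed after adjustment there either. Against APC/Bcat cKOs, 0 of 8 members passed in APC cKOs at an adjusted p under 0.05 (0.215% of all genes) and 2 of 8 at an unadjusted p under 0.05 (10.3% of all genes). In Bcat cOEs 0 of 8 passed adjusted (0.229% of all genes) and 1 of 8 unadjusted (11.9% of all genes). Between APC cKOs and Bcat cOEs, 0 of 8 passed either way (0.0429% adjusted and 7.57% unadjusted of all genes). With both elevated lines set against controls and APC/Bcat cKOs, 0 of 8 passed adjusted (0.0572% of all genes) and 1 of 8 unadjusted (8.84% of all genes). A count of 1 in 8 is close to those shares, and the 2 in 8 were Wnt4 and Wnt5a.

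Wnt4 accounts for 3 of these 4 unadjusted results, in comparisons that share the same 4 APC/Bcat cKO libraries and so are not independent. It was 0.744 times as high in Bcat cOEs as in APC/Bcat cKOs (95% interval 0.597 to 0.927, limma unadjusted p = 0.0115, adjusted p = 0.282). All 4 Bcat cOE libraries, up to 6.01 FPKM, lay below all 4 APC/Bcat cKO libraries, from 6.21 FPKM, so that the exact two-sided permutation p was 0.0286, the smallest that 4 against 4 can give. In APC cKOs it was 0.781 times APC/Bcat cKOs (0.627 to 0.973, limma unadjusted p = 0.0301, adjusted p = 0.443, exact permutation p = 0.171), and these groups overlapped. Over both elevated lines against the other 2 groups the ratio was 0.817 (0.699 to 0.954, limma unadjusted p = 0.0139, adjusted p = 0.427, exact permutation p = 0.0214).

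The remaining unadjusted result was Wnt5a, at 1.5 times the APC/Bcat cKO level in APC cKOs (95% interval 1.04 to 2.17, limma unadjusted p = 0.0322, adjusted p = 0.449, exact permutation p = 0.143). A single library, APC/Bcat cKO replicate 2 at 3.23 FPKM, lay within the APC cKO range. Wnt10a also separated Bcat cOEs, from 3.59 to 4.32 FPKM, and APC/Bcat cKOs, from 4.53 to 5.28 FPKM, without overlap. Its ratio was 0.826 (0.654 to 1.04, limma unadjusted p = 0.101, adjusted p = 0.501, exact permutation p = 0.0286). The exact permutation p-values are not adjusted over genes. The share of all genes tested that separated these lines without overlap was not counted, so the separation of Wnt4 and Wnt10a has no such share beside it.

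**Figure D3:**
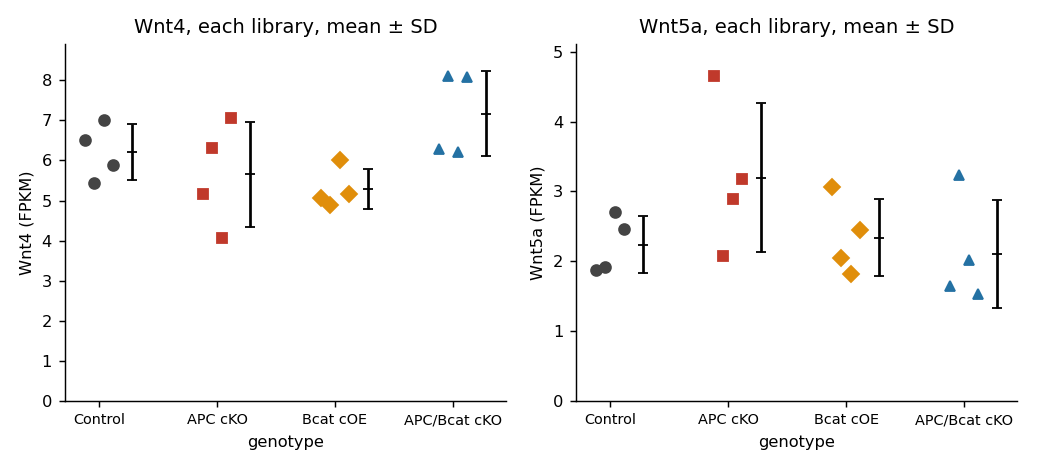
Wnt4 and Wnt5a in FPKM (vertical axes from 0) by genotype, with each symbol 1 library and black marks the mean ± SD of 4 libraries. All Bcat cOE libraries of Wnt4, up to 6.01 FPKM, lie below all APC/Bcat cKO libraries, from 6.21 FPKM. Wnt5a is highest in 1 APC cKO library at 4.65 FPKM.

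The 4 lower ligands that passed the limit were read beside the members. Wnt6, whose gene lies next to Wnt10a, was at 1.34, 1.16, 1.08 and 1.19 FPKM in APC cKOs and 0.517, 0.475, 0.919 and 0.39 FPKM in controls, without overlap. Its log2 difference was 0.99 (SE 0.324, limma unadjusted p = 0.00766, adjusted p = 0.332), while Wnt10a differed by 0.063 (SE 0.158). Wnt16 was 1.69 times as high in APC cKOs as in controls (95% interval 1.07 to 2.69, limma unadjusted p = 0.0279, adjusted p = 0.435). In Bcat cOEs the ratios to controls were 1.58 for Wnt6 (0.984 to 2.55) and 1.51 for Wnt16 (0.953 to 2.4), each with a limma adjusted p of 0.946. The other 2 ligands were lower there. Over both elevated lines against the other 2 groups, the ratios of Wnt6 and Wnt16 were 1.53 and 1.62 (limma unadjusted p = 0.0161 and 0.00669, adjusted p = 0.438 and 0.382). Wnt2b was lower in APC/Bcat cKOs than in controls, again without overlap, at a ratio of 0.7 (0.508 to 0.963, limma unadjusted p = 0.0309, adjusted p = 0.316). No adjusted p of these 4 ligands was under 0.05 in any comparison. Here too, the share of all genes tested that separated without overlap was not counted.

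The genes that act on Wnt ligands were read from lists, each by its counts. Of 9 genes of Wnt processing and secretion tested, 0 passed the adjusted threshold in any comparison. The smallest unadjusted p against controls was that of Notum, which removes the lipid from the serine shown above and is itself a canonical target, with a log2 difference of 1.025 in APC cKOs (SE 0.353, limma adjusted p = 0.358). In APC/Bcat cKOs it was that of Vps35, a retromer subunit that recycles the Wnt carrier Wls, with a difference of -0.152 (SE 0.053, limma adjusted p = 0.278). In Bcat cOEs the retromer subunit Vps29 led the list with -0.071 (SE 0.054, limma adjusted p = 0.95).

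Of 13 receptors and coreceptors tested, 0 passed adjusted in any comparison. At an unadjusted p under 0.05 against controls, 4 of 13 passed in APC cKOs (10% of all genes), 1 of 13 in Bcat cOEs (5.07% of all genes) and 1 of 13 in APC/Bcat cKOs (14.2% of all genes), each of them higher than in controls. Fzd6 led in APC cKOs with a log2 difference of 0.603 (SE 0.211, limma adjusted p = 0.367) and in APC/Bcat cKOs with 0.546 (SE 0.211, adjusted p = 0.289). Fzd8 led in Bcat cOEs with 0.381 (SE 0.139, limma adjusted p = 0.946). The Wnt7 partners Reck and Gpr124 had changes no larger than -0.299 (Reck in APC/Bcat cKOs, SE 0.141, limma adjusted p = 0.352). Of 7 R-spondins and receptors tested, 0 passed adjusted, and Rspo2, whose product amplifies Wnt signals, led in each line with differences of -0.277, -0.403 and -0.259 (SE 0.159 each) in APC cKOs, Bcat cOEs and APC/Bcat cKOs.

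The secreted antagonists held the 1 gene on these lists that passed. Sfrp1, which binds Wnt ligands outside the cell, was higher in APC cKOs than in APC/Bcat cKOs by 0.995 (SE 0.185, limma adjusted p = 0.0396). This call was lost in 14 of 28 alternatives, with a log2 difference of 0.896 to 1.03 and adjusted p of 0.053 to 0.15 in them. They include leaving out any single one of APC cKO replicates 1, 3 and 4, Bcat cOE replicate 4, Control replicate 2 and APC/Bcat cKO replicates 2, 3 and 4, and adding sex as a covariate. Against controls the difference in APC cKOs was 0.781 (SE 0.185, limma adjusted p = 0.248), and of the 28 alternatives it passed only without Control replicate 1 (0.936, adjusted p = 0.0342). Sfrp1 was also higher in APC cKOs than in Bcat cOEs, the other line with raised β-cat, by 1.005 (SE 0.185, limma adjusted p = 0.102). Neither the difference from controls nor that from Bcat cOEs passed the adjusted threshold in the main fit, so these values do not single out APC cKOs. Of the 7 antagonists tested, 0 passed adjusted against controls in any line, where Dkk3 led in Bcat cOEs (-0.309, SE 0.108) and Dkkl1 in APC/Bcat cKOs (0.236, SE 0.098). Higher than in controls were 5 of the 7 in APC cKOs (median log2 difference 0.266), 4 in Bcat cOEs (0.039) and 1 in APC/Bcat cKOs (-0.214). With both elevated lines set against the other 2 groups, 6 of the 7 were higher and 0 passed adjusted. The median there was 0.303, against -0.003 over all genes. Of 9 canonical target genes tested, 8 were higher in APC cKOs than in controls, with a median log2 difference of 0.272 against -0.004 over all genes. In Bcat cOEs, where β-cat is also raised, 5 were higher and 4 lower (median 0.052, against -0.004), and in APC/Bcat cKOs 4 were higher and 5 lower (median -0.011, against 0.003). None of the 9 passed the adjusted test against controls. The smallest p against controls in APC/Bcat cKOs was that of Ccnd1, a cell cycle gene (0.644, SE 0.168, limma adjusted p = 0.168), which passed with sex as a covariate (limma adjusted p = 0.0383) and in males only (limma adjusted p = 0.0409).

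The median log2 difference of the 8 members from controls was -0.034 in APC cKOs, 0.028 in Bcat cOEs and 0.144 in APC/Bcat cKOs. Over all genes tested it was -0.004, -0.004 and 0.003. In the order given, 4, 5 and 6 of the 8 members were the higher side.

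The members varied together in pairs across the 16 libraries. Of the 28 pairs of tested members, 2 had an adjusted permutation p under 0.05 for Pearson's r of log2(FPKM + 0.1). Wnt7a and Wnt5a rose and fell together (r = 0.805, permutation p = 0.00011, adjusted p = 0.00308, Spearman's rho = 0.706 with permutation p = 0.00298, adjusted p = 0.0328). After leaving out the 2 libraries farthest from the median of Wnt7a, r was 0.654, and with genotype means removed it was 0.871. Wnt9a and Wnt10b formed the other pair (r = 0.743, permutation p = 0.00156, adjusted p = 0.0218, rho = 0.726 with permutation p = 0.002, adjusted p = 0.0328). Without the 2 libraries farthest for Wnt9a this r was 0.694, and within genotype it was 0.705. Wnt7b and Wnt4 passed by rho alone (rho = 0.7, permutation p = 0.00351, adjusted p = 0.0328), with r = 0.653 (permutation p = 0.00637, adjusted p = 0.0595). Without the 2 libraries farthest for Wnt7b, r was 0.624, and within genotype 0.742. The closest paralogs did not pair in this way, with r = 0.0196 for Wnt7a with Wnt7b (permutation p = 0.941, rho = -0.194 with permutation p = 0.468) and r = -0.167 for Wnt10a with Wnt10b (permutation p = 0.535, rho = -0.0971 with permutation p = 0.718).

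**Figure D4:**
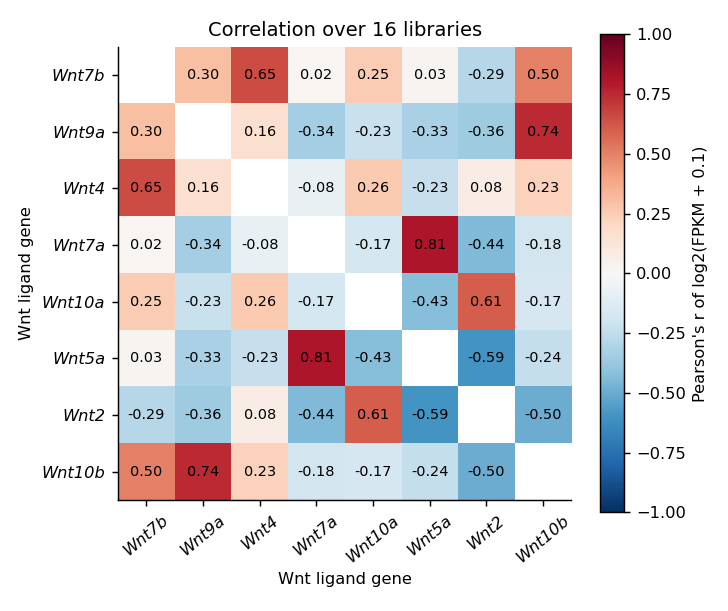
Pearson's r of log2(FPKM + 0.1) over 16 libraries for each pair of the 8 Wnt ligand genes tested, with red for positive and blue for negative values. The strongest pairs are Wnt7a with Wnt5a (0.805) and Wnt9a with Wnt10b (0.743), while the paralogs Wnt7a and Wnt7b are near 0 (0.0196).

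Each tested member was also set beside the summed FPKM of 13 lists of cell type markers, 104 relations in all, with p-values adjusted over the 104. In 7 relations the adjusted permutation p of r was under 0.05, and these involved Wnt7a, Wnt5a and Wnt2. A further 2 passed by rho alone. The members had no such relation, by r or rho, to the interneuron, microglia, endothelial, pericyte, meningeal fibroblast, oligodendrocyte precursor or oligodendrocyte lists.

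Wnt5a followed the neuroblast markers Dcx, Sox11 and Dlx2, genes of migrating young neurons, most closely (r = 0.952, rho = 0.929, permutation p = 1e-05 for each, the smallest that the permutations can give, adjusted p = 0.00104 for each). Their summed level was 7.26 to 26.4 FPKM over the libraries and highest in APC cKO replicate 1, where Wnt5a was also highest, at 4.65 FPKM. The next were Bcat cOE replicate 1, with 17.5 FPKM of markers and 3.06 FPKM of Wnt5a, and APC/Bcat cKO replicate 2, with 15.2 and 3.23 FPKM. Leaving out the 2 libraries farthest from the median of the markers left r = 0.711, and within genotype r was 0.974. By genotype, the marker sum ran from 7.38 to 12.3 FPKM in controls and 8.42 to 26.4 in APC cKOs. It ran from 9.29 to 17.5 in Bcat cOEs and 7.26 to 15.2 in APC/Bcat cKOs. The median log2 difference of the 3 markers from controls was 0.528 in APC cKOs, 0.327 in Bcat cOEs and -0.065 in APC/Bcat cKOs. That of Wnt5a was 0.46, 0.052 and -0.126 in the same order, so the 2 were unlike in Bcat cOEs. None of the 3 markers was at 0 in all libraries, and the part of these cells in the Wnt5a differences was not tested.

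Wnt7a followed the same list (r = 0.826, permutation p = 0.00011, adjusted p = 0.00416, rho = 0.762 with permutation p = 0.00095, adjusted p = 0.0278). Without the 2 libraries farthest from the marker median r was 0.707, and within genotype 0.853. It also rose with the ependymal list of Foxj1, Ccdc153 and Tmem212 (r = 0.731, permutation p = 0.00164, adjusted p = 0.0341, rho = 0.818 with permutation p = 0.00023, adjusted p = 0.012), whose sum was 0.587 to 19.5 FPKM, and there r was 0.753 without the 2 farthest libraries and 0.699 within genotype. With the astrocyte list r was 0.858 (permutation p = 0.00012, adjusted p = 0.00416), but 0.497 without the 2 farthest libraries, and rho was 0.644 (permutation p = 0.00865, adjusted p = 0.112). With the excitatory neuron list the relation was inverse (r = -0.701, permutation p = 0.00259, adjusted p = 0.0392, rho = -0.753 with permutation p = 0.00107, adjusted p = 0.0278), and r was -0.563 without the 2 farthest libraries and -0.675 within genotype. Wnt7a passed with the choroid plexus list by rho alone (rho = 0.726 with permutation p = 0.00205, adjusted p = 0.0426), with r = 0.575 (permutation p = 0.0178, adjusted p = 0.155), 0.538 without the 2 farthest libraries and 0.563 within genotype. The relation of Wnt5a to the astrocyte list rested on the 2 farthest libraries (r = 0.71, permutation p = 0.00264, adjusted p = 0.0392, rho = 0.426 with permutation p = 0.0997, and r = 0.208 without them).

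Wnt2 moved instead with the markers of striatal projection neurons (r = 0.757, permutation p = 0.00047, adjusted p = 0.0122, rho = 0.706 with permutation p = 0.00293, adjusted p = 0.0472). Their summed level was 56.8 to 356 FPKM, highest in APC cKO replicate 3. Wnt2 was highest in control replicate 1, at 3.19 FPKM with 268 FPKM of markers, and lowest in Bcat cOE replicate 1, at 0.838 FPKM with the lowest marker sum, 56.8 FPKM. Leaving out the 2 farthest libraries gave r = 0.66, and within genotype r was 0.824. With the neuroblast list Wnt2 was inverse and passed by rho alone (rho = -0.709 with permutation p = 0.00318, adjusted p = 0.0472), with r = -0.657 (permutation p = 0.00649, adjusted p = 0.0844), -0.636 without the 2 farthest libraries and -0.676 within genotype. The share of tissue from outside the cortex in each sample was not tested.

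**Figure D5:**
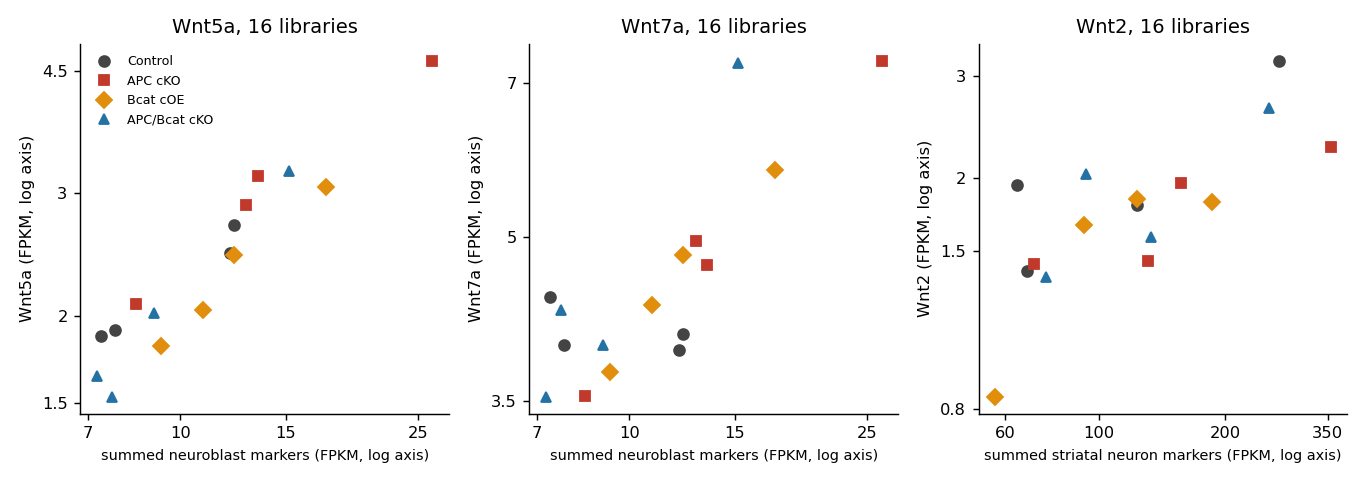
Wnt5a and Wnt7a against the summed FPKM of 3 neuroblast markers, and Wnt2 against the summed FPKM of 5 striatal projection neuron markers (all axes log), with each symbol 1 library and its colour and shape giving the genotype. Pearson's r on the log2 scale is 0.952, 0.826 and 0.757, and libraries of all 4 genotypes lie along each trend.

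Among all genes tested, the 2 whose pattern over the 16 libraries was most like each member by r of log2(FPKM + 0.1) were listed as a description. For Wnt5a these were Crispld2 (r = 0.936) and Dlx2 (r = 0.924), and for Wnt7a they were Tacr1 (r = 0.901) and Rnd3 (r = 0.899). Wnt4 was most like Efhd2 (r = 0.857) and Olfm1 (r = 0.822), and Wnt7b most like Nomo1 (r = 0.813) and Fam114a1 (r = 0.787). For Wnt9a the nearest gene was Fhod3 (r = 0.838), for Wnt10a Cirh1a (r = 0.898), for Wnt2 Mppe1 (r = 0.882) and for Wnt10b Sgk1 (r = 0.818).

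The start regions of the ligands were read because canonical signalling acts through TCF/LEF sites. The 250 bases before the start site were given by RefSeq (GRCm38.p6) for 7 of the 10 members, Wnt1, Wnt2, Wnt3, Wnt4, Wnt7a, Wnt9a and Wnt10b. GENCODE M21 starts some of these genes inside their windows, such as Wnt4 at chr4:137277489 and Wnt2 at chr6:18030585. By that annotation, part of such a window belongs to the transcript. The letters CTTTGAT, with the variant CTTTGTT, the variant CTTTGAA and the variant CTTTGTA, were searched on both strands and were in 0 of these 7 windows and in 14.8% of all 32851 windows. No match says only that these letters are not in these windows. The members' windows were rich in CpG, with 14 to 48 CpG dinucleotides each against a median of 6 over all windows, and a GC content of 63.6% to 85.2% against a median of 52.4%. The window of Wnt4 is shown as the member with the smallest unadjusted p between lines, and that of Wnt10b as the one with the fewest CpG, both 5′ to 3′ on the strand of the gene with each CpG in capitals. Wnt4 lies on the plus strand at chr4:137277385-137277634 and has 44 CpG, and Wnt10b lies on the minus strand at chr15:98778151-98778400 and has 14.
Wnt4: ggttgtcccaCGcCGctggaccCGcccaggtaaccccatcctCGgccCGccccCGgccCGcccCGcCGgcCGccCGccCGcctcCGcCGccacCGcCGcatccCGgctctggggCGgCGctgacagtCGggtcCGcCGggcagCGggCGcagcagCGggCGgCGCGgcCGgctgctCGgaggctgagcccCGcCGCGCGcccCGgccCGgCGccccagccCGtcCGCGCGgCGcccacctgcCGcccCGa
Wnt10b: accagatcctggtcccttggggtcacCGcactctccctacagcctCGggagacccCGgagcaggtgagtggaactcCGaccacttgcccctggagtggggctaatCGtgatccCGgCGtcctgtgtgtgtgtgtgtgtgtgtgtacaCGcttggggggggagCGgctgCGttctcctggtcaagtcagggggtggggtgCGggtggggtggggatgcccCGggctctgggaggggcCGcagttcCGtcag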

How the data were processed

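The authors prepared stranded mRNA libraries, mapped paired-end reads to mm10 with TopHat2 2.0.10 and made expression values with Cufflinks2 and Cuffdiff 2.1.1, per the labels and the study's methods. The deposited table holds 1 value per gene and library on a log2 scale, log2(FPKM + 1). The base and offset were settled from the values: back-transformed this way, 100% of 47711 values between 0.1 and 1 fell on a grid of 6 significant digits (tolerance 0.01 of a step), against 2.0% for natural logs. No fragment counts are given, so depth is unknown. Values were turned back into FPKM. Genotypes came from the sample labels. Nothing in the labels ties libraries to litters or batches. The p-values measure the spread between libraries, 1 per mouse, in which any differences of litter, batch or dissection are included.

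Genes averaging 0.5 FPKM or more were tested with limma 3.58.1 (R 4.3.3, trend) on log2(FPKM + 0.1) in a model of all 16 libraries (12 residual degrees of freedom), with Benjamini-Hochberg adjustment over 13978 genes. On simulated data with these means, set up as APC cKOs against controls, it called 94 of 100 genes with a simulated log2 change of 1, 100 of 100 with 2, and 6 of 13778 unchanged. The changed genes were drawn at random from all genes tested, with normal noise. These counts therefore do not give the power for the members. In the data, Wnt6 with a log2 difference of 0.99 in APC cKOs against controls (SE 0.324) had a limma adjusted p of 0.332. Single genes were compared by exact permutation and correlations by 100000 permutations (numpy 2.4.6). Protein identity came from global alignment of the principal transcripts' translations. Every member was named against controls, in other comparisons where its unadjusted p was under 0.05 (Wnt10a was added after its values were seen), other Wnts by level, and of each list the gene with the smallest p in each line. Wnt6, Wnt16, Wnt2b and Sfrp1 beyond that were named after their values were seen. The members and lists were chosen with earlier results of these data known.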

Additional observations from a re-analysis of the deposited data

Results flagged for a closer look

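In 3 of the 40 groups of 4 libraries, 10 genes in 4 genotypes, a library stood apart from its group by Dixon's ratio. Chance alone gives about 2 such groups. The ratio is the gap to the nearest library divided by the range of the group, both taken on log2(FPKM + 0.1). Levels are given below in FPKM, a scale on which the ratios would differ and were not computed. Wnt1 in controls was lowest in replicate 4, at 0.0584 FPKM against 0.238 to 0.267 FPKM in the others (ratio 0.903). Wnt2 in Bcat cOEs was lowest in replicate 1, at 0.838 FPKM against 1.66 to 1.84 FPKM (ratio 0.86). Wnt3 in APC/Bcat cKOs was highest in replicate 4, at 0.795 FPKM against 0.441 to 0.448 FPKM (ratio 0.976). Wnt1 and Wnt3 are below the limit for testing.

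Wnt4 was below the control mean in all 4 Bcat cOE libraries and above it in all 4 APC/Bcat cKO libraries, on the log2 scale. The opposite sides were not themselves tested. The direct difference between the lines was -0.427 on the log2 scale, with a limma adjusted p of 0.282.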

How the results depend on the processing

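The count of members with an adjusted p under 0.05 stayed at 0 in all 7 comparisons, under 28 alternatives in 6 of them and under 27 for both elevated lines together, where fitting only the groups compared is the fit of all libraries. Under these alternatives the smallest adjusted p of the 28 single-gene results was 0.169. The levels of all 10 members moved by less than 1 SD with median-of-ratios scaling or in controls alone. Of the genes named beside the members, Sfrp1 and Ccnd1 changed their call, with the values given above. Depth is unknown, and Wnt10b, Wnt3 and Wnt1 lie where 0.1 FPKM added before taking logs weighs most. No covariate for litter or dissection was available, and the 2 female libraries are a control and an APC cKO.

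Of 777 single-gene values under alternatives, 747 kept direction and side of the threshold and 30 changed sign, 22 of them on leaving out 1 library. The 30 fell in 10 results, whose main log2 differences ran from -0.183 (Wnt2 in APC cKOs) to 0.164 (Wnt7a in APC/Bcat cKOs). Differences of like size kept their sign elsewhere, such as 0.154 for Wnt7b in APC cKOs. The cause was not tested. With males only, the log2 difference from controls became 0.125 for Wnt2 in APC cKOs, -0.024 for Wnt5a, -0.014 for Wnt7b and 0.013 for Wnt10a in Bcat cOEs, and 0.114 for Wnt2 and -0.031 for Wnt9a in APC/Bcat cKOs. With sex as a covariate it became -0.011 for Wnt7b in Bcat cOEs and -0.006 for Wnt9a in APC/Bcat cKOs. Leaving out 1 library at a time gave, in APC cKOs, -0.35 to 0.035 for Wnt2, -0.089 to 0.228 for Wnt10a and -0.438 to 0.106 for Wnt10b. In Bcat cOEs it gave -0.081 to 0.162 for Wnt5a, -0.047 to 0.063 for Wnt7b and -0.304 to 0.013 for Wnt10a. In APC/Bcat cKOs it gave -0.271 to 0.114 for Wnt2, -0.058 to 0.285 for Wnt7a, -0.031 to 0.139 for Wnt9a and -0.028 to 0.289 for Wnt10a.

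Counts at an unadjusted p under 0.05 moved between 0 and 3. Fitting only the groups compared gave 1 in APC/Bcat cKOs against controls, 1 in APC cKOs and 3 in Bcat cOEs against APC/Bcat cKOs, and 1 between APC cKOs and Bcat cOEs. In APC cKOs against APC/Bcat cKOs, sex as a covariate gave 1 and males only gave 0. Leaving out 1 library gave 0 to 1 against controls in each line, 0 to 2 in APC cKOs and 1 to 2 in Bcat cOEs against APC/Bcat cKOs, 0 to 1 between APC cKOs and Bcat cOEs, and 1 to 2 for both elevated lines together.

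The numbers in the sample titles do not pair libraries across genotypes: correlations of same-numbered libraries ran from -0.218 to 0.322, and 5 of 16 libraries correlated best with their own number. With that number as a block, 1 member had an unadjusted p under 0.05 in APC/Bcat cKOs against controls, 1 in APC cKOs and 2 in Bcat cOEs against APC/Bcat cKOs. A block by sets of columns in the table, added after seeing the data, gave the same 3 counts.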
